A study of Homo sapiens with 6 samples.

Results

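The vascular endothelial growth factor (VEGF) family was followed in HUVECs, primary endothelial cells taken from the inner wall of the human umbilical vein. Its members were chosen by name, as the 4 ligand genes VEGFA, VEGFB, VEGFC and PGF, the 3 receptor genes FLT1, KDR and FLT4, and the 2 neuropilin genes NRP1 and NRP2. These are 9 genes of 17588 whose names stood on a single row of the deposited tables, and all 9 were among the 12216 that passed the filter on low values. The cells had been transfected with 8OH-G miR-483 (3 libraries), in which the microRNA miR-483 carries 8-oxoguanine, an oxidised base, or with miR-483 itself (3 libraries), in M199 medium with serum, heparin and an endothelial growth factor, and total RNA was taken on day 2. Both groups carry a transfected microRNA, and the scramble control named in the protocol was not analysed here, so each difference is one between the 2 forms. The labels do not give the arm of miR-483, the oxidised position or the origin of the replicates, so the spread that the p-values rest on may be technical.

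VEGF ligands are secreted dimers that drive the growth, survival and permeability of blood and lymphatic vessels. VEGFA binds the receptor tyrosine kinases FLT1 (VEGFR1) and KDR (VEGFR2), PGF and VEGFB bind FLT1, and VEGFC binds FLT4 (VEGFR3) and, once processed, KDR. KDR gives most of the mitogenic signal in blood endothelium, whereas FLT1 binds VEGFA tightly with weak kinase activity and is also made as a soluble decoy. Neuropilins are co-receptors without kinase activity that bind both VEGF ligands and class 3 semaphorins.

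With 8OH-G miR-483 the ligand transcripts changed in opposite directions, while none of the 3 receptor transcripts passed the test. VEGFA fell to 8.99 ± 2.60 FPKM with 8OH-G miR-483, against 37.1 ± 4.90 FPKM with miR-483 (mean ± SD, n = 3 libraries each, here and below). FPKM, a fragment count scaled by the authors for transcript length and library total, is the unit inferred for the deposited values. PGF and VEGFB rose, to 1.75-fold and 1.33-fold the mean FPKM of the miR-483 libraries. Of the co-receptors, NRP2 fell to 42.2 ± 2.94 FPKM with 8OH-G miR-483, against 77.6 ± 4.25 FPKM with miR-483, and NRP1 had 88.1 ± 8.31 FPKM with 8OH-G miR-483 and 88.2 ± 5.33 FPKM with miR-483. In all, 2 members rose, 2 fell and 5 did not pass an adjusted p of 0.05 in limma with Benjamini-Hochberg adjustment over all tested genes. The share of members called was 44.4%, and the background was 55.4% of all tested genes called, 35.0% higher and 20.4% lower. The 2 groups did not overlap for 4 members, and did not for 63.3% of all tested genes. The median log2 fold change was 0.04 over the members and 0.10 over all tested genes.

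**Figure D1:**
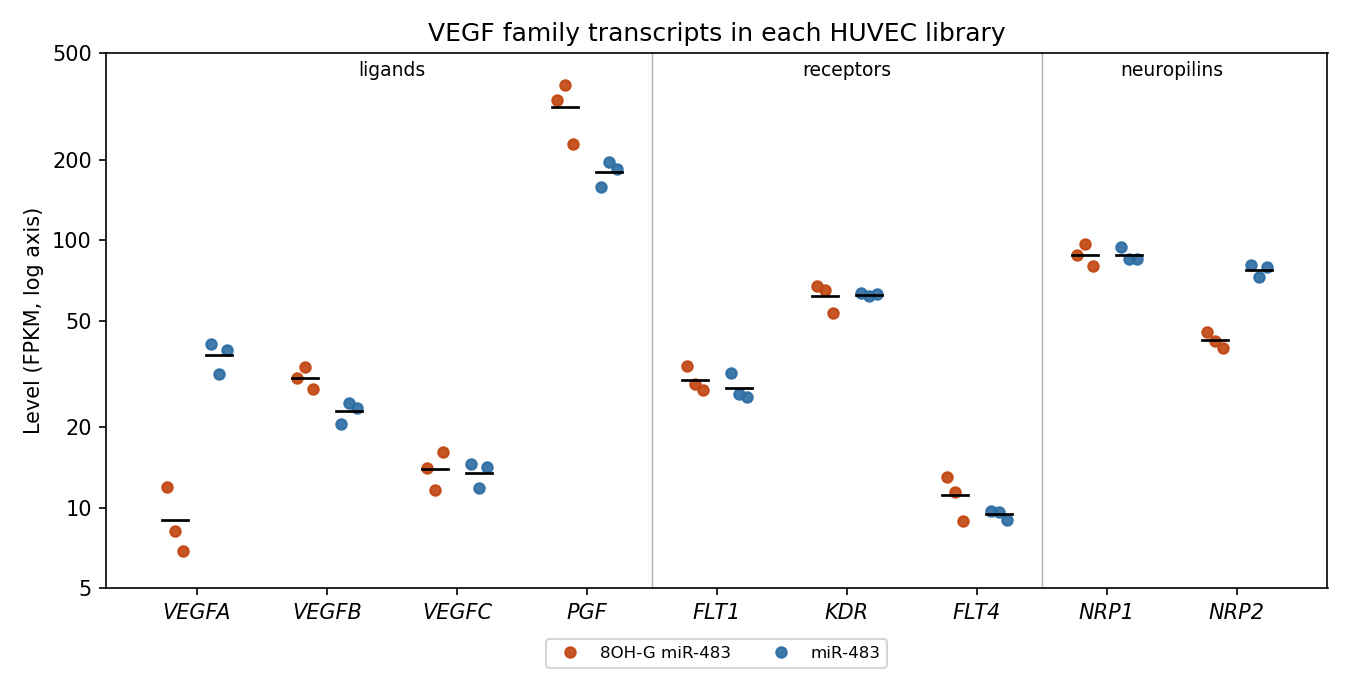
Level of each VEGF family transcript in FPKM on a log axis, with 1 point per library and a bar at the group mean, 8OH-G miR-483 in red and miR-483 in blue. The groups stand apart for VEGFA, VEGFB, PGF and NRP2 and overlap for VEGFC, FLT1, KDR, FLT4 and NRP1.

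The libraries held 11995 to 12041 genes at 1 FPKM or more with 8OH-G miR-483 and 11912 to 11950 with miR-483, and mitochondrial rows took 74.6% to 76.6% of all FPKM with 8OH-G miR-483 and 71.3% to 76.2% with miR-483. Read depth is unknown, since the tables hold no counts. The cells carried endothelial markers in both groups: all 10 markers looked for were tested, and their summed level was 1519 to 1766 FPKM with 8OH-G miR-483 and 2476 to 2478 FPKM with miR-483. Of these markers 7 were lower (70%), 0 were higher and 3 did not pass, beside 20.4% lower and 35.0% higher over all tested genes. All 10 proliferation markers rose, beside 35.0% higher over all tested genes. Their summed level was 351 to 426 FPKM with 8OH-G miR-483, against 80.8 to 84.3 FPKM with miR-483. The part of either shift in the VEGF family results was not tested, and in bulk RNA fewer cells of a type and less RNA per cell cannot be told apart.

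Promoter sequences are shown for 3 of the members that changed, NRP2, which fell, and VEGFB and PGF, which rose, so that the regions in front of genes that moved in opposite directions can be read side by side. They come from RefSeq on GRCh38.p14, a later build than the hg19 of the deposited values, which matched 6 of the 9 members by symbol (NRP2, VEGFB, PGF, KDR, VEGFC and FLT1). Each run holds the 250 bases before the annotated start, 5′ to 3′ on the gene's strand, with matches to GGGCGG or its reverse complement CCGCCC in capitals, the GC box that SP and KLF family factors bind.
NRP2, chr2:205682251-205682500, plus strand: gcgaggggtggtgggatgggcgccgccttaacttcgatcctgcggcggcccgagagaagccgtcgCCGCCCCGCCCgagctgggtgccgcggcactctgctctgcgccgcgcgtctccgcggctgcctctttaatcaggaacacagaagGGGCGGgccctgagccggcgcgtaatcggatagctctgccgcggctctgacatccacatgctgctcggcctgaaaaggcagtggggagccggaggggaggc
VEGFB, chr11:64234334-64234583, plus strand: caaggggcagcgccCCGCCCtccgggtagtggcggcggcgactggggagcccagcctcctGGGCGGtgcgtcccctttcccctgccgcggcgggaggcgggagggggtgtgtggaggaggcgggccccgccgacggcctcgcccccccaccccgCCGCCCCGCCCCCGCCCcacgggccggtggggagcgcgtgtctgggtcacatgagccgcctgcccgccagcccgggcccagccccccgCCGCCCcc
PGF, chr14:74955765-74956014, minus strand: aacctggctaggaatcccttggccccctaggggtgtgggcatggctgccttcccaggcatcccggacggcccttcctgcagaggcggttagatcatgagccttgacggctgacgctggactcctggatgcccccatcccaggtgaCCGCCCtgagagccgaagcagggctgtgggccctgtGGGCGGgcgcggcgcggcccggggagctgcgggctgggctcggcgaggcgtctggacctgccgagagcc
The GC box matched 3 times in the NRP2 window, 6 times in that of VEGFB and 2 times in that of PGF, with neighbouring matches overlapping in NRP2 and VEGFB. Of 35116 RefSeq windows of the same length, 42.6% held at least 1 match. The core of the hypoxia response element, ACGTG or GCGTG on either strand, matched 1 time in the VEGFB window and 0 times in those of NRP2 and PGF, and 43.2% of all windows held it. PGF has a second annotated start, not printed, whose window held 3 GC boxes and 1 hypoxia core. The windows of the uncalled members FLT1, KDR and VEGFC, not printed, held 3, 2 and 2 GC boxes and 1, 0 and 1 hypoxia cores. Matches were thus not particular to the members that changed. VEGFA, FLT4 and NRP1 had no window. The matches are a description of these letters, not of bound sites.

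Among the ligands, VEGFA had the largest fitted change of any member. Its level was 11.9, 8.16 and 6.91 FPKM in the 3 libraries with 8OH-G miR-483, against 40.9, 31.6 and 38.9 FPKM with miR-483. The highest library with 8OH-G miR-483 lay well under the lowest with miR-483, which was 2.65-fold above it. The mean level was 4.13-fold lower with 8OH-G miR-483, and limma gave a log2 fold change of -1.96 (95% interval -2.37 to -1.54, adjusted p = 4.98e-05) on the log2(FPKM + 1) scale, where low genes appear to change less than they do. A fitted fall of this size or more among called genes was found for 53 of the 12216 tested genes, or 0.434%, VEGFA included. VEGFA is spliced into isoforms that differ in how they bind heparan sulphate, and the values, given per gene, do not separate them.

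PGF, placental growth factor, which binds FLT1 but not KDR, was the most abundant member per length in every library. Its level was 335, 381 and 229 FPKM with 8OH-G miR-483, against 158, 195 and 185 FPKM with miR-483. The groups did not overlap, but the lowest library with 8OH-G miR-483, replicate 3, was 1.17-fold above the highest with miR-483, and the libraries of that group varied more (coefficient of variation 24.8% with 8OH-G miR-483 and 10.8% with miR-483). The log2 fold change was 0.78 (95% interval 0.37 to 1.19, adjusted p = 0.00619, limma), and 8.96% of all tested genes were called with a rise at least as large.

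VEGFB, the other FLT1-only ligand, which is linked to fatty acid uptake by endothelium, had 30.6, 33.5 and 27.8 FPKM with 8OH-G miR-483, against 20.6, 24.7 and 23.6 FPKM with miR-483. Its groups also stood apart, by less than those of VEGFA, and the log2 fold change was 0.40 (95% interval 0.19 to 0.61, adjusted p = 0.00626, limma). A rise at least this large was called in 23.0% of all tested genes. VEGFC, the ligand of lymphatic growth, had 14.1, 11.7 and 16.2 FPKM with 8OH-G miR-483 and 14.5, 11.8 and 14.1 FPKM with miR-483. These ranges overlap, and the 95% interval of its fold, 0.848 to 1.25 on the log2(FPKM + 1) scale, bounds the difference in both directions. FIGF, the file's name for the lymphatic ligand gene VEGFD, was under the filter, at 0.176 ± 0.0376 FPKM with 8OH-G miR-483 and 0.521 ± 0.0754 FPKM with miR-483.

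The receptor transcripts lay close together in the 2 groups. KDR had 67.5, 65.0 and 53.5 FPKM with 8OH-G miR-483 and 63.2, 61.7 and 62.9 FPKM with miR-483. Of the libraries with 8OH-G miR-483, 2 were above all those with miR-483 and replicate 3 was below them. The fitted log2 fold change was -0.02, with a 95% interval of its fold of 0.854 to 1.14. FLT1 had 33.9, 29.1 and 27.5 FPKM with 8OH-G miR-483 and 31.8, 26.6 and 26.0 FPKM with miR-483, with overlapping ranges, a log2 fold change of 0.10 and an interval of the fold of 0.907 to 1.26. Membrane-bound and soluble FLT1 share a gene and cannot be separated in these values.

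FLT4, the VEGFC receptor, which is strongest in lymphatic endothelium and also present in cultured HUVECs, was the least abundant receptor. It had 13.0, 11.5 and 8.93 FPKM with 8OH-G miR-483 and 9.73, 9.62 and 9.02 FPKM with miR-483. Replicates 1 and 2 with 8OH-G miR-483 were above every miR-483 library and replicate 3 below, and the log2 fold change of 0.20 (95% interval -0.07 to 0.47) had an adjusted p = 0.184 in limma. Without 8OH-G miR-483 replicate 3 the log2 fold change was 0.34 and the adjusted p = 0.0109 in limma, so the call for FLT4 rests on that library. The intervals of the receptors leave room for changes of up to 1.39-fold in FLT4, and they do not show that receptor levels were equal.

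The neuropilins differed from each other. NRP2, the co-receptor that pairs mainly with FLT4 and binds VEGFC and semaphorin 3F, had 45.3, 42.1 and 39.4 FPKM with 8OH-G miR-483, against 80.4, 72.7 and 79.7 FPKM with miR-483. The groups were far apart, with the lowest miR-483 library 1.61-fold above the highest with 8OH-G miR-483. The mean was 1.84-fold lower, and the log2 fold change was -0.86 (95% interval -1.04 to -0.69, adjusted p = 2.97e-05, limma), a fall matched or exceeded by 3.72% of all tested genes. NRP1, the co-receptor that brings VEGFA to KDR, had 87.7, 96.6 and 80.0 FPKM with 8OH-G miR-483 and 94.3, 85.0 and 85.2 FPKM with miR-483. The NRP1 ranges overlap fully, and the interval of its fold was 0.870 to 1.14. GENCODE 29 annotates an antisense transcript over exons of VEGFA, NRP1 and NRP2, and strand-specific counting is not stated, so their reads could include it.

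**Figure D2:**
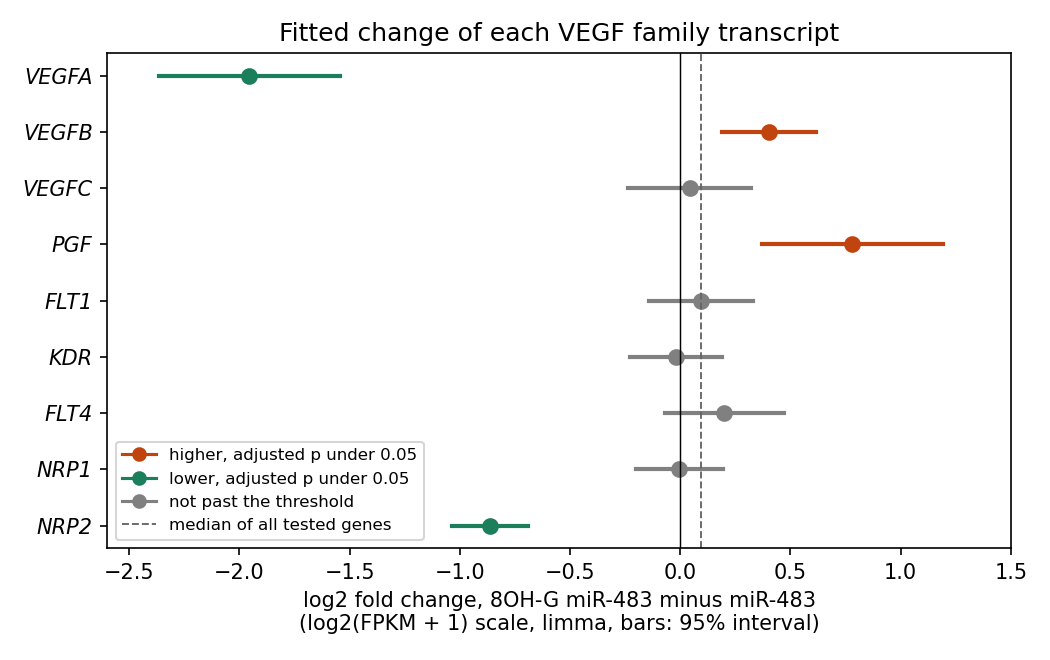
Fitted log2 fold change of each member, with 8OH-G miR-483 first in the difference and log2(FPKM + 1) as the scale, with its 95% interval from limma, and a dashed line at the median of all tested genes, 0.10. VEGFA and NRP2 lie left of 0, VEGFB and PGF right of it, and the intervals of the other 5 members include 0.

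Ratios within a library do not depend on the scaling between libraries, and 3 were compared. The PGF to VEGFA ratio of FPKM was 28.1, 46.7 and 33.1 with 8OH-G miR-483, against 3.86, 6.18 and 4.76 with miR-483, a 7.26-fold difference of geometric means. The NRP2 to NRP1 ratio, added after the values were seen, was 0.516, 0.436 and 0.492 with 8OH-G miR-483, against 0.853, 0.856 and 0.935 with miR-483. In both ratios every library of one group lay outside the other group, and each had p = 0.1 in a two-sided exact permutation test, the smallest that 3 against 3 libraries can give (0.15 after Benjamini-Hochberg adjustment over the 3 ratios). The FLT1 to KDR ratio was 0.502, 0.448 and 0.513 with 8OH-G miR-483 and 0.504, 0.432 and 0.413 with miR-483, with overlapping groups and p = 0.3 in the same exact test (adjusted 0.3).

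The mix of ligand transcripts followed these changes. VEGFA made up 3.04%, 1.88% and 2.47% of the summed FPKM of the 4 ligands with 8OH-G miR-483, against 17.5%, 12.0% and 14.9% with miR-483. PGF made up 81.8% to 87.7% with 8OH-G miR-483 and 67.5% to 74.2% with miR-483. VEGFB held 7.72% to 9.93% with 8OH-G miR-483 and 8.81% to 9.36% with miR-483, with overlapping ranges although its level rose. The summed level of the ligands was 280 to 434 FPKM with 8OH-G miR-483 and 234 to 264 FPKM with miR-483.

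**Figure D3:**
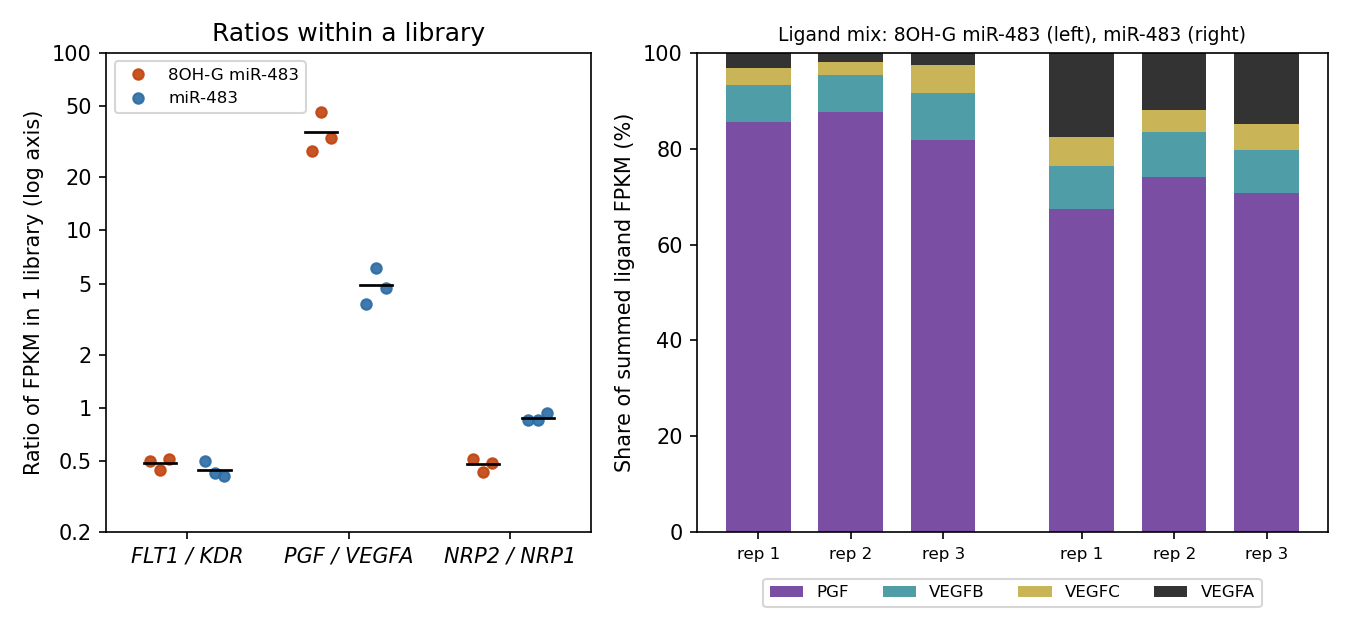
Left, ratio of FPKM values within each library on a log axis, with 1 point per library and a bar at the group mean; right, share of each ligand in the summed ligand FPKM of each library, in percent. The PGF to VEGFA ratio lies between 28.1 and 46.7 in the 8OH-G miR-483 libraries and between 3.86 and 6.18 in the miR-483 libraries, and VEGFA is the thin top band at left.

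The order of mean levels, read per length in FPKM, changed mainly through VEGFA. With 8OH-G miR-483 the order was PGF, NRP1, KDR, NRP2, VEGFB, FLT1, VEGFC, FLT4 and VEGFA, and with miR-483 it was PGF, NRP1, NRP2, KDR, VEGFA, FLT1, VEGFB, VEGFC and FLT4. VEGFA was thus the lowest of the 9 with 8OH-G miR-483 and the fifth with miR-483. Neighbours whose library ranges overlapped were VEGFB and FLT1, VEGFC and FLT4, and FLT4 and VEGFA with 8OH-G miR-483, and VEGFA and FLT1 with miR-483. NRP2 was below KDR in all libraries with 8OH-G miR-483 and above it in all with miR-483.

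By the distance between centred log2(FPKM + 1) profiles over the 6 libraries, the non-member genes most like VEGFA were TM4SF18, a tetraspan membrane protein gene, and RAPGEF4, which encodes a cAMP-responsive exchange factor. The root mean square distance was 0.14 on the log2 scale for each, against a spread of 1.01 for VEGFA around its own mean. TM4SF18 had 10.4, 7.77 and 6.37 FPKM with 8OH-G miR-483, against 28.8, 28.3 and 33.0 FPKM with miR-483. Nearest to NRP2 were the basement membrane gene NID1 and the microtubule-binding gene CLIP2, at distances of 0.034 and 0.036. Nearest to PGF were FABP5, a fatty acid binding protein gene, at 0.037 and FABP5P7 at 0.051. FABP5P7 is a pseudogene of FABP5, so reads may be shared and these are not independent. FABP5 had 317, 358 and 206 FPKM with 8OH-G miR-483, against 148, 174 and 165 FPKM with miR-483. Its 8OH-G miR-483 replicate 3 was the lowest of its group as in PGF, a likeness that choosing the nearest profile builds in.

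Of 16 tested genes that control VEGF ligand transcription and message stability, 8 fell (50%) and 3 rose (18.8%), beside 20.4% lower and 35.0% higher over all tested genes. Their median log2 fold change was -0.24, beside 0.10 over all tested genes. The counts of this list and of those that follow are descriptions, and no difference between a list and all genes was tested. EPAS1 (HIF2A), a hypoxia-inducible factor abundant in endothelium, had 50.2, 42.3 and 41.8 FPKM with 8OH-G miR-483, against 123, 111 and 119 FPKM with miR-483, a log2 fold change of -1.38. HIF1A, another hypoxia-inducible factor of the list, named after its values were seen, moved the opposite way. It had 82.5, 75.8 and 81.7 FPKM with 8OH-G miR-483, against 54.4, 44.6 and 53.0 FPKM with miR-483, a log2 fold change of 0.65 (adjusted p = 0.000318, limma). ZFP36L2 and ZFP36L1, which encode proteins that bind AU-rich elements and hasten mRNA decay, fell by 1.03 and 0.57 on the log2 scale. HNRNPL, an RNA-binding protein reported to stabilise VEGFA mRNA in hypoxia, rose by 0.54.

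Of 16 tested genes for ligand processing and matrix binding, 7 fell (43.8%) and 4 rose (25%), beside 20.4% lower and 35.0% higher over all tested genes, and their median log2 fold change was -0.14. SULF1, a sulfatase that trims heparan sulphate and so alters the binding of heparin-binding growth factors, had 16.4, 14.5 and 20.4 FPKM with 8OH-G miR-483, against 126, 98.4 and 116 FPKM with miR-483. Its mean was 6.63-fold lower, with no overlap. FURIN, a proprotein convertase that cleaves the VEGFC precursor, fell by 0.70 on the log2 scale and the gelatinase gene MMP2 fell by 0.80. PLAU, urokinase, which generates plasmin, a protease that can release matrix-bound VEGFA, rose to 58.0 ± 6.52 FPKM with 8OH-G miR-483, against 21.1 ± 1.43 FPKM with miR-483.

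Of 27 tested genes of signalling below the receptors, 8 rose (29.6%), 4 fell (14.8%) and 15 did not pass, beside 35.0% higher and 20.4% lower over all tested genes. Higher genes made up 66.7% of the calls of this list, near the 63.2% of all calls. After median-ratio scaling they made up 41.7% (5 rose, 7 fell), beside 50.02% of all calls, while quantile normalization gave 6 and 6. YES1, a SRC family kinase, rose to 73.6 ± 7.35 FPKM with 8OH-G miR-483, against 42.3 ± 2.11 FPKM with miR-483. HSPB1, the small heat shock protein phosphorylated downstream of p38 in VEGF-treated endothelium, fell to 310 ± 54.9 FPKM with 8OH-G miR-483, against 573 ± 61.3 FPKM with miR-483. MAPK3, which encodes ERK1, fell by 0.55 on the log2 scale and SHB, a KDR-binding adaptor gene, by 0.46.

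Of 20 tested genes for receptor traffic and dephosphorylation, 6 fell (30%), 4 rose (20%) and 10 did not pass, beside 20.4% lower and 35.0% higher over all tested genes. PTPRB, the endothelial phosphatase VE-PTP, had 15.7, 12.5 and 16.5 FPKM with 8OH-G miR-483, against 40.6, 29.6 and 35.0 FPKM with miR-483, a 2.35-fold lower mean. The cytosolic phosphatase genes PTPN1 (PTP1B) and PTPN11 (SHP2) rose by 0.61 and 0.58 on the log2 scale, and RAB7A, a late endosome GTPase, rose by 0.43. The phosphatases of this list thus changed in both directions.

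Of 19 tested transcription factors of endothelial and receptor gene control, 11 fell (57.9%) and 3 rose (15.8%), beside 20.4% lower and 35.0% higher over all tested genes, and their median log2 fold change was -0.30. LMO2, a bridging factor of GATA and TAL1 complexes, had 10.4, 11.5 and 8.67 FPKM with 8OH-G miR-483, against 22.6, 26.0 and 22.7 FPKM with miR-483. The ETS family genes FLI1 and ELK3 fell by 0.71 and 0.77 on the log2 scale, and LYL1, a TAL1 relative, rose by 0.62. None of the 3 receptor transcripts passed the test beside these changes.

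Genes that VEGF is known to induce in endothelium changed in both directions. Of 19 tested, 10 rose (52.6%) and 6 fell (31.6%), beside 35.0% higher and 20.4% lower over all tested genes. Higher genes made up 62.5% of these calls, near the 63.2% of all calls as deposited. Median-ratio scaling and quantile normalization each kept 10 and 6 in this list, while higher genes then made up 50.02% and 49.0% of all calls. EGR1 and TNFAIP3 reached 1 FPKM only in the 8OH-G miR-483 libraries, so they had to differ in order to be tested. Among the other 17, 8 rose and 6 fell, and the median log2 fold change was 0.40, beside 0.44 with both included. ESM1 (endocan), a tip cell gene, had 94.1, 102 and 117 FPKM with 8OH-G miR-483, against 28.4, 30.4 and 27.4 FPKM with miR-483. APLN, the peptide apelin, had 206 ± 2.52 FPKM with 8OH-G miR-483 and 79.4 ± 8.21 FPKM with miR-483, and PLAUR, the urokinase receptor, had 65.4 ± 2.67 FPKM with 8OH-G miR-483 and 24.3 ± 2.83 FPKM with miR-483. The early transcription factor gene EGR1 rose at low levels, with 1.99, 2.18 and 1.76 FPKM with 8OH-G miR-483, against 0.0864, 0.0568 and 0.163 FPKM with miR-483. Of those that fell, named after their values were seen, the secreted glycoprotein gene STC1, the leukocyte adhesion gene ICAM1 and the prostaglandin synthase gene PTGS2 had log2 fold changes of -0.996, -0.725 and -0.655. Each of these genes also answers to signals other than VEGF. The proliferation markers rose in the same libraries, and a link between them and these genes was not tested.

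Of 9 tested semaphorin and plexin partners of the neuropilins, 4 rose (44.4%) and 2 fell (22.2%), beside 35.0% higher and 20.4% lower over all tested genes, while median-ratio scaling and a replicate block each made this 4 and 4. SEMA3A, a neuropilin 1 ligand that restrains endothelial migration, had 1.61, 1.51 and 2.11 FPKM with 8OH-G miR-483, against 0.193, 0.195 and 0.260 FPKM with miR-483. SEMA3G, made by endothelium and bound by NRP2, had 3.08, 3.28 and 1.58 FPKM with 8OH-G miR-483, against 0.130, 0.336 and 0.235 FPKM with miR-483. Both semaphorins were low in both groups. SEMA3A, SEMA3G and SEMA3D, 3 of the 4 that rose, reached 1 FPKM only in the 8OH-G miR-483 libraries, so they too had to differ in order to be tested. Among the other 6, 1 rose and 2 fell. The plexin genes PLXNA1 and PLXNA3 moved apart, with log2 fold changes of 0.60 and -0.60.

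Among the related platelet-derived growth factor genes, 3 of 4 tested rose (75%), beside 35.0% higher over all tested genes. PDGFC had 4.37, 4.12 and 5.69 FPKM with 8OH-G miR-483, against 1.69, 2.18 and 1.83 FPKM with miR-483, a 2.49-fold higher mean. PDGFA and PDGFD had log2 fold changes of 0.42 and 0.29, but neither call held after median-ratio scaling (adjusted p = 0.0572 and 0.0543, limma) or quantile normalization (0.122 and 0.0679). PDGFA also missed the threshold without 8OH-G miR-483 replicate 2 (0.0577), 8OH-G miR-483 replicate 3 (0.0557) or miR-483 replicate 3 (0.0707), and PDGFD without 8OH-G miR-483 replicate 1 (0.0624) or miR-483 replicate 3 (0.051), in limma.

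**Figure D4:**
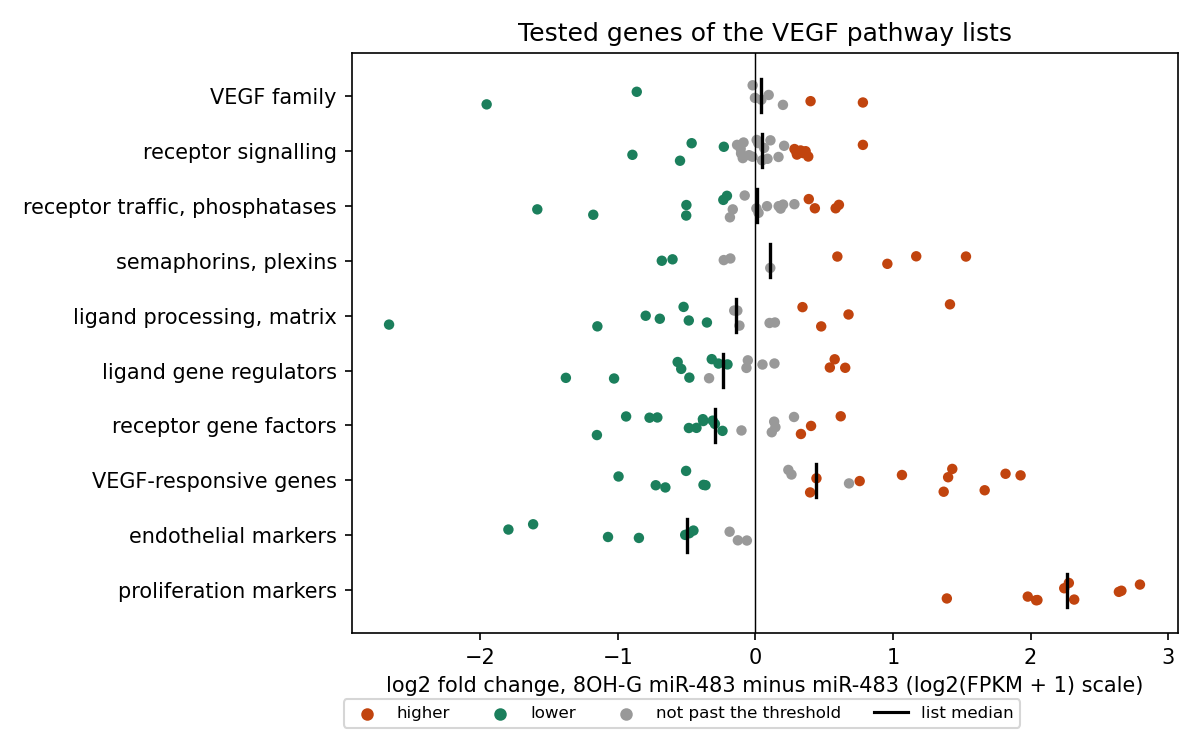
Log2 fold change of every tested gene of each list shown, on the log2(FPKM + 1) scale and positive where 8OH-G miR-483 is higher. Each gene is 1 point, spread vertically for visibility, and a black bar marks the list median. The platelet-derived growth factor genes and the lymphatic, mural, leukocyte and epithelial markers are not drawn. Medians of the lists shown run from -0.50 for endothelial markers to 0.44 for VEGF-responsive genes, EGR1 and TNFAIP3 included, with proliferation markers apart at 2.26.

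Markers of other cells that make VEGF ligands or receptors were read in the same fit. A row here means a name on a single row, since repeated names were left out. Over all tested genes, 35.0% were higher and 20.4% lower. Of 8 leukocyte markers 3 had a row, summing to 45.2 to 49.6 FPKM with 8OH-G miR-483 and 52.5 to 56.7 FPKM with miR-483. LYZ and CD68 were lower. LAPTM5, the most abundant of the 3, did not pass, at 40.1 ± 1.58 FPKM with 8OH-G miR-483 and 38.8 ± 3.22 FPKM with miR-483. Of 10 mural and fibroblast markers 5 had a row. They summed to 3.52 to 4.45 FPKM with 8OH-G miR-483 and 4.61 to 4.96 FPKM with miR-483. Of these, 3 were under 1 FPKM in every library. Of the 2 tested, COL3A1 was lower (log2 fold change -0.56, adjusted p = 0.000322, limma) and ACTA2 did not pass. With repeated names included 3 were tested, so the sums leave out at least 1 marker with a repeated name. Of 11 epithelial and trophoblast markers 4, all keratins, had a row and summed to 404 to 462 FPKM with 8OH-G miR-483, against 130 to 153 FPKM with miR-483. KRT7 and KRT18, both also made by cultured endothelium, rose. KRT8 and KRT19 did not pass, with log2 fold changes of -0.04 and 0.32 (adjusted p = 0.691 and 0.0643, limma). The lymphatic markers PROX1 and LYVE1 fell, with a sum of 14.7 to 18.4 FPKM with 8OH-G miR-483, against 26.4 to 28.4 FPKM with miR-483, while FLT4 did not pass. PROX1 missed the threshold without 8OH-G miR-483 replicate 2 (adjusted p = 0.0679), miR-483 replicate 1 (0.108) or miR-483 replicate 2 (0.054), in limma. LYZ, like the 5 low genes above, passed the filter only through the group where it was high. The part of these markers in the VEGF family results was not tested.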

How the data were processed

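One table per library was used, 6 in all, with 20792 rows each. The unit of the deposited values is not named and was inferred to be FPKM, scaled by the authors for gene length and library size. The tools HTSeq, STAR, cutadapt and DESeq2 and the build hg19 are listed, without versions or order, per the submitters' processing notes. Whole reads were not recovered: 8 values lay above 0 and below 0.0001 FPKM, too small for 1 read. Names on more than 1 row (748 names on 3204 rows) were left out. Genes that reached 1 FPKM in 3 or more libraries were fitted with limma 3.58.1 in R 4.3.3 on log2(FPKM + 1), with group as its only term, robust shrinkage with a variance trend, Benjamini-Hochberg adjustment over all tested genes and a threshold of 0.05. The fit was checked on simulated data. Ratios were tested with scipy 1.17.1. Of each list up to 4 called genes with the smallest adjusted p are named, with the 2 nearest genes for each of the 3 members with the largest change. List genes without a row, and matches to the microRNA's seed, were not analysed here. List genes with a repeated name entered only the fit that included such names. Members and lists were chosen with earlier results of these data known. Alternatives covered pseudocount, filter, scaling, repeated names, a replicate block and each library left out.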

Additional observations from a re-analysis of the deposited data

How the results depend on the processing

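The calls for VEGFA, NRP2, PGF and VEGFB kept direction and threshold under every alternative run. Over the 6 fits that each left out a library, their log2 fold changes ran from -2.16 to -1.80 (VEGFA), -0.91 to -0.82 (NRP2), 0.63 to 0.99 (PGF) and 0.33 to 0.47 (VEGFB). Those of the other members ran from -0.063 to 0.16 (VEGFC), -0.084 to 0.081 (KDR), -0.072 to 0.063 (NRP1), 0.01 to 0.18 (FLT1) and 0.089 to 0.34 (FLT4, called without 8OH-G miR-483 replicate 3 only, 0.34). Scaling turned the sign of uncalled members: VEGFC was at -0.063 and FLT1 at -0.014 after median-ratio scaling and VEGFC at -0.078 after quantile normalization, which moved the median of all genes by -0.10 and -0.11. Higher genes made up 63.2% of all calls as deposited and 49.0% after quantile normalization, and median-ratio scaling gave 3331 higher and 3328 lower. With replicate number as a block, 4635 genes rose and 2677 fell, against 4279 and 2493 without it, and no member's call changed. Whether the same number marks a pair is not stated. Same-numbered libraries deviated with correlations of 0.025, 0.34 and 0.0089, and differently numbered ones with -0.27 to 0.24. In the paired form, the exact sign-flip p was 0.25 for the PGF to VEGFA and NRP2 to NRP1 ratios, the smallest that 3 pairs allow, and 0.5 for FLT1 to KDR. The design with 3 libraries a group and unknown read depth limits what can be said of the uncalled receptors to the intervals given.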
